A study of Homo sapiens with 66 samples.

Results

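The subunits of the SWI/SNF chromatin remodelling complex were followed through 10 genes, SMARCA4, SMARCA2, SMARCB1, SMARCC1, SMARCC2, SMARCD1, SMARCD2, SMARCE1, ARID1A and ARID1B. They were chosen by symbol, with earlier results of these data known, and they are 10 of 57992 genes counted. Each symbol matched 1 gene identifier, and all 10 genes had enough reads to be tested in every cell line. RNA was sequenced from 11 human acute myeloid leukaemia (AML) cell lines, F36P, HL60, KASUMI1, MOLM13, MONOMAC6, MV411, NB4, NOMO1, OCIAML2, OCIAML3 and THP1. Each line was kept in media alone (untreated) or in etoposide, a poison of topoisomerase II, for 24 hours, with 3 libraries in each of the 22 groups and the cells of 3 wells pooled for each RNA extraction. Etoposide was given at the IC50 of each line, so the concentration differed between cell lines, and a difference between lines in the response cannot be told apart from a difference in concentration. A library held 17997404 to 24101670 reads on genes (median 20241014). The etoposide libraries of OCIAML2 failed the study's own quality control of the reads and are given apart, and results over 10 cell lines leave this line out.

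Each line is 1 established culture, and its markers were checked in the untreated libraries. PTPRC (CD45), CD33 and SPI1 (PU.1), which mark leukocytes and myeloid cells, were present in all 11 lines, at 33.6 to 557 CPM (counts of a gene scaled to one total per library), 68.0 to 149 CPM and 109 to 209.7 CPM. MPO, the peroxidase of granules, ran from 1.01 CPM in F36P to 28036 CPM in KASUMI1, and ANPEP (CD13) was at 0.66 CPM in MOLM13. F36P also held the erythroid markers GATA1 at 262 CPM, KLF1 at 239 CPM and HBG1 at 15.6 CPM. The T cell marker CD3E reached at most 3.43 CPM, whereas the epithelial marker EPCAM was at 84.5 CPM in KASUMI1. CDKN1A, a p53 target that halts the cell cycle, was higher after etoposide in each of the 10 lines, by 1.86 to 5.46 on the log2 scale, and by 0.73 in OCIAML2. The median SD between replicates of a gene's log2 CPM was lowest in untreated OCIAML2, at 0.056, and highest in etoposide-treated THP1 and untreated F36P, at 0.198 and 0.178. The mean share of reads on mitochondrial genes was higher after etoposide in every line except HL60. The groups overlapped in HL60, NB4, NOMO1 and OCIAML2, and in NOMO1 the means were 5.75% untreated and 5.77% after etoposide. The part of this share in the results below was not tested.

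SWI/SNF complexes, also named BAF complexes in mammals, use ATP to slide or evict nucleosomes and so open promoters and enhancers. Each complex carries a single ATPase, SMARCA4 (BRG1) or SMARCA2 (BRM), on a scaffold of SMARCC subunits, SMARCC1 (BAF155) and in most forms SMARCC2 (BAF170), with a SMARCD subunit. SMARCB1 and SMARCE1 belong to the canonical BAF and PBAF forms and are absent from the non-canonical form. ARID1A or ARID1B then marks the canonical BAF form, whereas ARID2, PBRM1 and BRD7 mark the PBAF form, and BRD9 with BICRA or BICRAL marks the non-canonical form. In AML, SMARCA4 is known for its binding at enhancers of MYC, and the complex is also known to help topoisomerase II, the target of etoposide, to act on chromatin.

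Paralogues such as SMARCA4 and SMARCA2 are compared throughout, so the longest stretch that the coding sequences of each pair (MANE Select transcripts) have in common is shown first, since a read that fits inside it cannot be assigned to 1 of the 2 genes. It was 26 bases for SMARCA4 and SMARCA2, 23 for SMARCC1 and SMARCC2, 20 for SMARCD1 and SMARCD2, and 25 for ARID1A and ARID1B, where it is a CAG repeat.
SMARCA4 and SMARCA2: gagaagctggagaagcagcagaagat
SMARCC1 and SMARCC2: ttcaatgaatggatgaatgagga
SMARCD1 and SMARCD2: atggatctcttggcttttga
ARID1A and ARID1B: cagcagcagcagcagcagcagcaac
The 150 bases before 1 start site of each ATPase gene, that of its MANE Select transcript, are shown next. Each gene as annotated begins before the end of its window, and the likeness of the 2 promoters was not measured. Capitals mark matches, on either strand, to the GC box GGGCGG and the ETS motif CCGGAAG.
They are from RefSeq on GRCh38.p14, on the plus strand of both genes, at chr19:10960880-10961029 for SMARCA4 and chr9:2015197-2015346 for SMARCA2. SMARCA4: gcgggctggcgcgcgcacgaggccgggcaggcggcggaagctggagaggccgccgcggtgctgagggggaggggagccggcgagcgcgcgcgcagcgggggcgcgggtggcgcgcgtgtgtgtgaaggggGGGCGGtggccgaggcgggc
SMARCA2: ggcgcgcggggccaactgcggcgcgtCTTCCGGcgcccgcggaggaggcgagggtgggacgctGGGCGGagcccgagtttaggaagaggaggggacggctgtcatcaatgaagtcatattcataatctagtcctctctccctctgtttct
The full window of 250 bases was 82.4% G or C with 44 CpG in SMARCA4 and 68.8% with 29 CpG in SMARCA2. It held 4 GC boxes in SMARCA4, and 2 GC boxes and 1 ETS motif in SMARCA2. Of 35116 RefSeq promoter windows of the same length, 42.6% hold a GC box and 8.52% this ETS motif. RefSeq lists 2 start sites for SMARCA4 and 4 for SMARCA2, and counts per gene do not separate them.

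More subunits were lower than higher after etoposide. Over 10 cell lines, 58 of the 100 pairs of subunit and cell line were called lower and 3 higher at an FDR below 0.05, against 24.4% lower and 27.7% higher of all pairs of gene and cell line. All pairs include genes at lower levels than any subunit, and these shares were not matched for level. The median log2 change over the 100 pairs was -0.29, and over all pairs it was 0.01. Most changes were small, since only 6 pairs were lower by more than 2-fold, where 3.96% of all pairs were. These 6 were SMARCA4, SMARCC1, ARID1A and ARID1B in F36P, and SMARCC1 and ARID1B in KASUMI1. No pair was higher by more than 2-fold, whether at an unadjusted p below 0.05 or in DESeq2, where 11.1% of all pairs were in edgeR. In 62 pairs all 3 etoposide libraries lay below all 3 untreated libraries, and in 5 pairs above, against 26.6% and 32.7% of all pairs. Without F36P, 49 of the remaining pairs were lower, and without THP1, 54. In one fit of 60 libraries, the mean change over the 10 lines was lower for 8 subunits (24.1% of all genes), higher for SMARCC2 alone (31.7% of all genes) and not called for SMARCE1. The lines were taken as fixed there, so this test sets the mean change against the spread between replicates, not between lines. The median over all genes of that mean change was 0.16, and over the 10 subunits it was -0.26. Among genes averaging 10 CPM or more, split by gene span, the median was between -0.03 and 0.02. Of those genes 38.6% to 41.6% were lower. In bulk RNA, a lower level in every cell cannot be told apart from fewer cells holding the RNA. Scaling by library size alone, without TMM, shifted the changes by between -0.01 in MOLM13 and 0.24 in F36P, and 45 pairs were then called lower, 3 of them by more than 2-fold, and 7 higher. The calls lost in this way were SMARCA2, SMARCB1 and SMARCC2 in F36P, SMARCA4 and SMARCA2 in HL60, SMARCB1 and SMARCD1 in KASUMI1 and in MV411, ARID1A and ARID1B in NB4, SMARCD1 in NOMO1, and SMARCA4 and SMARCE1 in THP1.

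**Figure D1:**
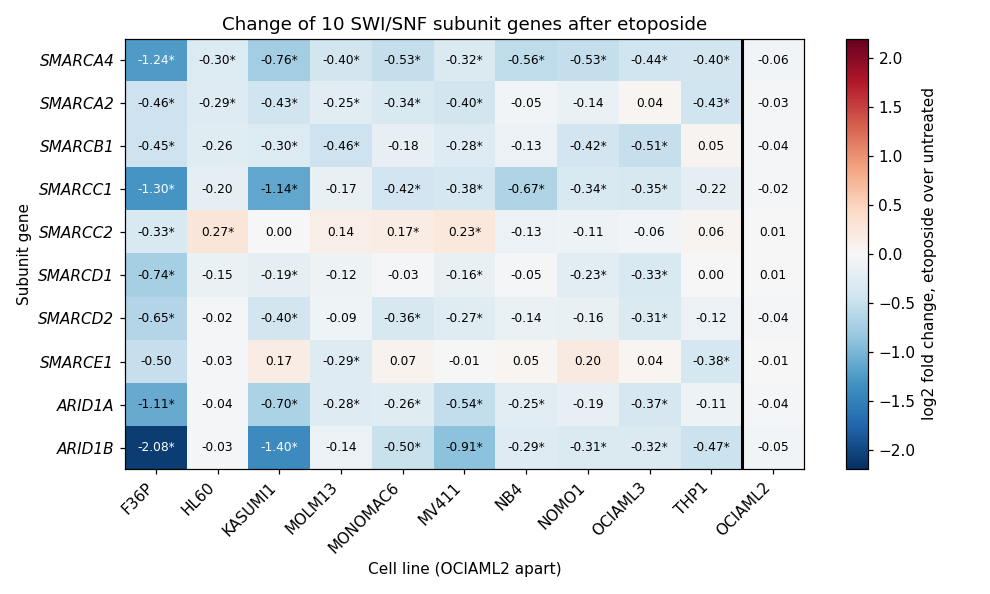
Log2 fold change after etoposide of the 10 subunit genes (rows) in 11 cell lines (columns), on a colour scale from blue (lower) to red (higher), with * at an FDR below 0.05 in edgeR. SMARCA4 is marked lower in each of the 10 lines left of the black rule, the darkest cell is ARID1B in F36P at -2.08, and OCIAML2 on the right holds no *.

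SMARCA4, one of the alternative ATPases, lies at chr19:10960932-11079426 on the plus strand (GRCh38, gencode release 44, as for all positions of genes here). It was lower after etoposide in all 10 cell lines, which 1.77% of the 10588 genes tested in every line were. In F36P it fell from 848, 687 and 703 to 297, 325 and 351 CPM, a log2 change of -1.24 ± 0.11 (SE, adjusted p = 1.04e-05). In KASUMI1 its levels were 223, 222 and 229 CPM untreated and 133, 137 and 140.4 CPM after etoposide, with a log2 change of -0.76 ± 0.07 (SE, adjusted p = 1.43e-05). These were the lines with the largest falls, and in both the groups were far apart. In MONOMAC6 the libraries stood at 281, 307 and 298 CPM untreated and 195, 213 and 207 CPM after etoposide. In NB4 they stood at 271, 299 and 251 CPM untreated and 182, 207 and 187 CPM after etoposide. In NOMO1 the values were 233, 256 and 252 CPM untreated and 185, 154 and 165 CPM after etoposide. These 3 lines fell by 0.53, 0.56 and 0.53 on the log2 scale, and in none of them did the groups overlap. OCIAML3 had 323, 320.0 and 296 CPM untreated and 216, 229 and 245 CPM after etoposide. MOLM13 had 283, 274 and 252 CPM untreated and 189, 228 and 221 CPM after etoposide. MV411 had 397, 377 and 399 CPM untreated and 299, 336 and 337 CPM after etoposide. Their log2 changes were -0.44, -0.40 and -0.32, again with no overlap. HL60 had 243, 244 and 238 CPM untreated and 186, 211 and 207 CPM after etoposide, the smallest of the falls at -0.30 ± 0.085 (SE, adjusted p = 0.017). THP1 had 179, 165 and 182 CPM untreated and 124, 170.2 and 114 CPM after etoposide, and was the only one of the 10 lines in which the groups overlapped, since its second etoposide library lay above the lowest untreated one. The call in THP1 (-0.40 ± 0.15 (SE, adjusted p = 0.0416)) was lost when any untreated library or the first or the third etoposide library was left out, with adjusted p-values of 0.0945 to 0.225. In HL60 it was lost without the first or the third untreated or the first etoposide library, at 0.0558 to 0.0844, and in both lines with library size alone. OCIAML2, by contrast, had 249, 233 and 240.5 CPM untreated and 222, 215 and 253 CPM after etoposide, with overlapping groups. Over the 10 lines the mean log2 change was -0.52 ± 0.030 (SE), or 0.697 of the untreated level. This SE, as for every mean over 10 lines from the fit of 60 libraries, is that of replicates. The SD between lines was 0.28 for SMARCA4.

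SMARCA2, the other ATPase, lies at chr9:1980290-2193624 on the plus strand. It was lower in 7 of the 10 lines and by less, with a mean log2 change of -0.25 ± 0.024 (SE), and 13.6% of genes tested in every line were lower in at least 7. In THP1 its libraries stood at 324, 304 and 302 CPM untreated and 254, 218 and 239 CPM after etoposide. In KASUMI1 they stood at 97.2, 92.9 and 84.4 CPM untreated and 74.3, 65.0 and 71.4 CPM after etoposide. In MV411 they stood at 172, 161 and 159.8 CPM untreated and 133, 123 and 131 CPM after etoposide. The log2 changes of these 3 lines were close together, at -0.43, -0.43 and -0.40, and no groups overlapped, but the THP1 call was lost without the first untreated library (adjusted p = 0.0757). MONOMAC6 had 165, 163 and 165 CPM untreated and 132, 128 and 131 CPM after etoposide. MOLM13 had 168, 165 and 161 CPM untreated and 144, 148 and 140.3 CPM after etoposide. HL60 had 159.8, 165 and 149.6 CPM untreated and 134, 135 and 128 CPM after etoposide. SMARCA2 was lower in each of them, by 0.34, 0.25 and 0.29 in log2 change, although in HL60 the call was lost when any untreated library or the third etoposide library was left out (adjusted p from 0.0554 to 0.076). F36P had 379, 422 and 500.0 CPM untreated and 361, 317 and 302 CPM after etoposide, a log2 change of -0.46 ± 0.14 (SE, adjusted p = 0.0181) that lost its call without the second or the third etoposide library (adjusted p = 0.0587 and 0.0647) and with library size alone. In this line SMARCA2 was lowest, and SMARCA4 highest, in the same untreated library, the first. The 3 lines without a call were NB4, NOMO1 and OCIAML3, with log2 changes of -0.05, -0.14 and 0.04. Their values were 109.6, 113 and 99.5 CPM untreated and 119, 102 and 101 CPM after etoposide in NB4. NOMO1 had 70.9, 66.0 and 63.1 CPM untreated and 59.7, 59.6 and 58.6 CPM after etoposide, so the groups did not overlap although the test was not passed. OCIAML3 had 99.1, 92.9 and 93.4 CPM untreated and 98.8, 95.8 and 95.8 CPM after etoposide, with almost equal ranges. In OCIAML2, given apart, they were 277, 273 and 259 CPM untreated and 270.4, 267 and 251 CPM after etoposide.

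Because SMARCA4 and SMARCA2 compete for 1 place in the complex, their ratio was followed within each library, per kilobase of the MANE Select transcript (5577 and 5748 bases). In untreated cells SMARCA4 exceeded SMARCA2 in 9 of the 11 lines, and most in NOMO1, where the ratio was 3.82. OCIAML3 followed at 3.39, NB4 at 2.62, KASUMI1 at 2.53 and MV411 at 2.45. SMARCA2 exceeded SMARCA4 in THP1, at a ratio of 0.583. In OCIAML2 the ratio was 0.920 per kilobase of these transcripts and 1.09 per kilobase of all annotated exons, so its side of 1 depends on the length used. After etoposide the ratio moved toward SMARCA2 in 8 of 10 lines, with a mean change of -0.28 ± 0.27 on the log2 scale (SD, n = 10 lines; two-sided exact sign-flip permutation test, p = 0.0117). The 3 etoposide libraries all lay below the 3 untreated ones in 6 lines: F36P (-0.79), NB4 (-0.50), OCIAML3 (-0.47), NOMO1 (-0.39), KASUMI1 (-0.33) and MONOMAC6 (-0.19). They overlapped in MOLM13 (-0.15), HL60 (-0.01), THP1 (0.00) and MV411 (0.08), and in OCIAML2 (-0.03). In NB4, NOMO1 and OCIAML3 the shift came with a called fall of SMARCA4 and no called change of SMARCA2, whereas in HL60, MV411 and THP1 both were called lower by like amounts. With 3 libraries against 3, a single line cannot reach an exact p below 0.1, so the ratio was not tested line by line. Leaving out F36P gave a mean of -0.22 (exact permutation p = 0.0234), and leaving out replicate number 1 of every group gave -0.21 (p = 0.0352).

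The scaffold genes SMARCC1 and SMARCC2 went apart. SMARCC1 (chr3:47585269-47782106, minus strand) had a mean log2 change of -0.49 ± 0.022 (SE) and was called lower in 7 lines. In KASUMI1 it went from 546, 504 and 494 to 261, 222 and 241 CPM, and in F36P from 237, 236 and 227 to 98.4, 96.5 and 98.2 CPM. In both lines every etoposide library lay below the lowest untreated one, with log2 changes of -1.14 ± 0.085 (SE, adjusted p = 3.99e-06) and -1.30 ± 0.099 (SE, adjusted p = 4.99e-06). NB4 followed, with 410.2, 428 and 398 CPM untreated and 289, 261 and 254 CPM after etoposide. The changes in HL60 (-0.20), MOLM13 (-0.17) and THP1 (-0.22) were not called. SMARCC2 (chr12:56162359-56189567, minus strand) was called higher in HL60, MONOMAC6 and MV411 and lower in F36P alone, where the call was lost without the first or second etoposide library (adjusted p = 0.0751 and 0.0692). In HL60 it stood at 135, 146 and 135 CPM untreated and 172, 169 and 171 CPM after etoposide, a log2 change of 0.27 ± 0.082 (SE, adjusted p = 0.0203). In MV411 it stood at 155, 148 and 146 CPM untreated and 178, 179 and 188 CPM after etoposide, a log2 change of 0.23 ± 0.054 (SE, adjusted p = 0.000848). Neither pair of groups overlapped, but the HL60 call was lost without its first or the third untreated library (adjusted p = 0.0761 and 0.107), and the MONOMAC6 call (log2 change 0.17) without the third library of either group (0.0561 and 0.0581). The mean change over 10 lines was 0.05 ± 0.022 (SE, adjusted p = 0.0394), and it was 0.01 without replicate number 3 and not called. This SE is that of replicates. The change of SMARCC2 was below 0 in 5 of the 10 lines, with an SD between lines of 0.19, so a rise across lines is not shown. The log2 ratio of SMARCC1 to SMARCC2 fell in all 10 lines with no overlap of the groups in any, from -0.23 in NOMO1 to -1.14 in KASUMI1 (mean -0.54 ± 0.30, SD), which is given as a description with no test. SMARCB1 (chr22:23786931-23838009, plus strand), the core subunit lost in rhabdoid tumours, was called lower in 6 lines with a mean log2 change of -0.27 ± 0.036 (SE), and 19.6% of genes tested in every line were lower in at least 6. The largest fall was in OCIAML3, from 44.2, 42.8 and 39.9 to 29.9, 27.7 and 30.6 CPM (-0.51 ± 0.078 (SE, adjusted p = 0.00123)). In MOLM13 it stood at 47.6, 45.8 and 42.5 CPM untreated and 29.1, 36.9 and 37.2 CPM after etoposide. In both lines the groups were apart, whereas the calls in F36P (-0.45) and KASUMI1 (-0.30) were each lost when 1 of 3 libraries was left out, with adjusted p-values of 0.0532 to 0.0783. The exons of SMARCB1 overlap those of DERL3 on the opposite strand over 17.7% of their length, and the counts were taken as stranded. In MONOMAC6, where the replicate numbers were taken to pair the libraries, its log2 change of -0.18 was not called in the unpaired fit. It was called with the replicate number as a block (adjusted p = 0.0293).

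The SMARCD genes encode accessory subunits that dock transcription factors. SMARCD1 (chr12:50085200-50100707, plus strand) and SMARCD2 (chr17:63832081-63843065, minus strand) were each called lower in 5 lines, with mean log2 changes of -0.17 ± 0.027 and -0.22 ± 0.026 (SE), where 26.4% of genes tested in every line were lower in at least 5. In F36P SMARCD1 stood at 229, 209.9 and 176 CPM untreated and 127, 121 and 132 CPM after etoposide and SMARCD2 at 206, 177 and 156 CPM untreated and 119, 118 and 117 CPM after etoposide, the largest falls of both. SMARCD2 in KASUMI1 stood at 327, 337 and 371 CPM untreated and 251, 297 and 262 CPM after etoposide. Outside F36P the called changes of both were between -0.16 and -0.40, and those of SMARCD1 in KASUMI1 (-0.19), MV411 (-0.16) and NOMO1 (-0.23) were each lost without 1 of several libraries (adjusted p from 0.0539 to 0.145). The log2 ratio of SMARCD1 to SMARCD2 rose in 5 lines and fell in 5, by a mean of 0.05 ± 0.15 (SD, n = 10 lines). SMARCE1, a DNA-binding subunit with an HMG box, had the fewest calls. In edgeR it was called lower in MOLM13 and THP1, where 55.7% of genes tested in every line were lower in at least 2, and its mean log2 change was -0.04 ± 0.038 (SE, adjusted p = 0.448). In THP1 it stood at 60.1, 66.6 and 62.0 CPM untreated and 54.5, 45.4 and 49.7 CPM after etoposide, with the groups apart. In F36P, where its untreated libraries were spread over 51.3, 73.3 and 85.0 CPM, its change of -0.50 was not called by edgeR, but it was called by DESeq2 (adjusted p = 0.0118), with RLE normalization (0.0213), with no filter on low counts (0.00058), in the fit of 60 libraries (0.00121), and without the first or the third untreated library (0.000557 and 0.0265). With library size alone SMARCE1 was called higher in KASUMI1, MONOMAC6, NB4 and NOMO1, by 0.19 to 0.34. Both called changes were lost when any 1 of several libraries was left out, in THP1 any untreated library or the third etoposide library and in MOLM13 any library but the first etoposide one (adjusted p from 0.0548 to 0.175 over both lines). A second gene of the same strand (ENSG00000264058) overlaps 18.9% of the exon length of SMARCE1 (chr17:40624962-40648654), so reads there may not have been counted to it.

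ARID1A (chr1:26693236-26782104, plus strand) and ARID1B (chr6:156776020-157210779, plus strand), the DNA-binding subunits of canonical BAF, were lower together, ARID1B by more. ARID1B was called lower in 8 lines with a mean log2 change of -0.62 ± 0.026 (SE), the lowest of the 10 subunits, and 8.56% of genes tested in every line were lower in at least 8. In F36P it fell from 241, 199 and 195 to 50.2, 47.7 and 56.3 CPM, a log2 change of -2.08 ± 0.12 (SE, adjusted p = 1.55e-06). In KASUMI1 it stood at 118, 110.2 and 116 CPM untreated and 48.8, 37.9 and 47.8 CPM after etoposide (-1.40 ± 0.11 (SE, adjusted p = 4.5e-06)). In MV411 it stood at 84.2, 79.0 and 74.9 CPM untreated and 44.8, 43.5 and 42.5 CPM after etoposide (-0.91 ± 0.064 (SE, adjusted p = 7.21e-11)). In each of these lines the highest etoposide library lay well below the lowest untreated one. In HL60, in contrast, ARID1B stood at 132, 117 and 118 CPM untreated and 122, 127 and 118 CPM after etoposide, within one range, and in MOLM13 its change of -0.14 was not called either. In OCIAML3 its call (-0.32) was lost without the first or second untreated library (adjusted p = 0.0612 and 0.0529). ARID1A was called lower in 7 lines with a mean log2 change of -0.36 ± 0.027 (SE). In F36P it stood at 319, 258 and 250.2 CPM untreated and 123, 126 and 147 CPM after etoposide. In KASUMI1 it stood at 312, 294 and 300.1 CPM untreated and 207, 171 and 198 CPM after etoposide. In MV411 it stood at 299, 278 and 274 CPM untreated and 202, 207 and 195 CPM after etoposide. The groups were again apart, with log2 changes of -1.11, -0.70 and -0.54, each smaller in size than that of ARID1B in the same line. Its call in NB4 (-0.25) was lost without the first untreated library or any etoposide library (adjusted p from 0.0512 to 0.0585). With library size alone the changes in NB4 were -0.04 for ARID1A (adjusted p = 0.676) and -0.09 for ARID1B (0.369), and neither was called. The log2 ratio of ARID1A to ARID1B rose in 7 lines, in 6 of them with no overlap, by up to 0.98 in F36P and 0.71 in KASUMI1 (mean 0.26 ± 0.36, SD, n = 10 lines), and fell in HL60, MOLM13 and OCIAML3 with overlapping groups.

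The cell lines differed in how far the subunits moved. In F36P 9 of the 10 subunits were called lower, against 25% of all genes. In KASUMI1 and MV411 8 were lower, against 28.6% and 30.4% of all genes. OCIAML3 followed with 7 (17.7% of all genes), MONOMAC6 with 6 (30.5%), and MOLM13 and NOMO1 with 5 each (28.1% and 23.9%). NB4 and THP1 had 4 each (28.7% and 16%), and HL60 had 2 (15%). Among genes averaging 10 CPM or more, the share lower differed with gene span. It was 30.7% to 53.4% in F36P, 32.2% to 59.0% in KASUMI1, 35.7% to 40.3% in MV411 and 16.6% to 25.5% in OCIAML3. In MONOMAC6 it was 34.5% to 45.3%, in MOLM13 20.4% to 39.1% and in NOMO1 21.7% to 35.1%. For NB4, THP1 and HL60 it was 34.8% to 37.0%, 13.6% to 16.9% and 15.3% to 20.1%. HL60, MONOMAC6 and MV411 also had 1 subunit, SMARCC2, called higher, where 17.5%, 31.8% and 33.5% of all genes were. In the lines with no subunit called higher, that share of all genes was 35% in F36P, 31.5% in KASUMI1, 28.1% in MOLM13, 31% in NB4, 28.8% in NOMO1, 22.4% in OCIAML3 and 16.1% in THP1. The falls of more than 2-fold, 4 subunits in F36P and 2 in KASUMI1, stood against 6.67% and 6.52% of all genes. In the paper the IC50 was highest in F36P and next highest in KASUMI1, so line and concentration cannot be told apart here. In the other lines no subunit fell that far, and 1.24% of all genes did in HL60, 3.37% in MOLM13, 4.47% in MONOMAC6, 2.63% in MV411, 4.82% in NB4, 4.43% in NOMO1, 1.36% in OCIAML3 and 3.46% in THP1. A rise of more than 2-fold, seen for no subunit, was called for 24.3% of all genes in F36P, 5.34% in HL60, 14.6% in KASUMI1, 8.59% in MOLM13, 8.53% in MONOMAC6, 12.5% in MV411, 13.2% in NB4, 8.34% in NOMO1, 7.18% in OCIAML3 and 6.38% in THP1. The median log2 change of the 10 subunits was lowest in F36P, at -0.69, and nearest to 0 in HL60, at -0.10. The change differed between the 10 lines for all 10 subunits by the interaction test of edgeR, which 74.5% of all genes passed. The F statistic was highest for ARID1B, at 58.6, and SMARCC1, at 31.8, and lowest for SMARCB1, at 2.63. That test was passed by 9 subunits without replicate number 1 (not SMARCB1) or 3 (not SMARCE1) and by 7 without number 2 (not SMARCA2, SMARCB1 and SMARCE1). When 1 library was left out, the count in either direction moved by 3 in 4 lines. In NOMO1 it rose from 5 to 8 without the first etoposide library, in F36P it fell from 9 to 6 without the second etoposide library, and in HL60 it fell from 3 to 0 without the first or the third untreated library. In THP1 the count fell from 4 to 1 without the first untreated library and to 2 without the second or the third untreated or the third etoposide library. In OCIAML2 no subunit was called by edgeR or DESeq2, none had an unadjusted p below 0.05, and the log2 changes lay between -0.06 and 0.01. Over all genes of that line, 0.0221% were called higher and 0% lower.

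The untreated levels of the 10 subunits also differed between lines. The F test over 11 lines was passed by all 10, as by 99.4% of all genes, so the size of the differences tells more. SMARCA2 had the widest range, from 66.7 CPM in NOMO1 to 434 CPM in F36P, which is 6.50-fold. SMARCD1 had a range of 4.91-fold, from 41.7 CPM in THP1 to 205 CPM in F36P, and SMARCA4 one of 4.26-fold, from 175 CPM in THP1 to 746 CPM in F36P. ARID1A and SMARCC2 were the most even, at 1.88-fold and 1.96-fold. Only 5.38% of all genes tested had a smaller log2 range than ARID1A and 5.97% than SMARCC2, whereas 52.8% had a smaller one than SMARCA2. In order of level, SMARCA4 ran F36P, MV411, OCIAML3, MONOMAC6, NB4, MOLM13, NOMO1, HL60, OCIAML2, KASUMI1 and THP1. Of the 10 pairs of neighbours in that order 4 differed: F36P stood above MV411, MV411 above OCIAML3, MOLM13 above NOMO1, and KASUMI1 above THP1. For SMARCA2 the order was F36P, THP1, OCIAML2, MOLM13, MV411, MONOMAC6, HL60, NB4, OCIAML3, KASUMI1 and NOMO1. There 5 neighbours differed, and the 4 lines from MOLM13 to HL60 formed a plateau between 158 and 165 CPM. THP1 thus held the lowest SMARCA4 and the second highest SMARCA2 level. Over all 55 pairs of lines, 36 (SMARCE1 and ARID1A) to 47 (SMARCA2) differed for a subunit, against 66.8% of all pairs of gene and line pair. F36P was highest for SMARCA4, SMARCA2, SMARCC2, SMARCD1 and ARID1B, and lowest for SMARCC1, at 233 CPM against 514 CPM in KASUMI1. KASUMI1 was highest for SMARCC1, SMARCB1 and SMARCD2. MONOMAC6 was lowest for SMARCB1, at 18.8 CPM, and for SMARCE1, at 36.1 CPM. Compared per kilobase of transcript, SMARCD2 was the most abundant of the 10, with a median over lines of 74.1 CPM per kilobase, followed by SMARCC1 at 52.1 and SMARCA4 at 48.4. SMARCB1 was the lowest on this scale, at 8.15 CPM per kilobase. Per kilobase of all annotated exons the order was another, with SMARCC1 highest at 43.4, SMARCD2 at 30.9, SMARCB1 at 2.56 and ARID1B lowest at 2.5. SMARCD2 exceeded SMARCD1 in all 11 lines on this scale, although per kilobase of all annotated exons SMARCD1 was above it in F36P and NB4. SMARCC1 exceeded SMARCC2 in every line but F36P, where the ratio was 0.941 per kilobase of transcript and 1.41 per kilobase of all exons. ARID1A exceeded ARID1B in every line, from 1.56-fold in F36P to 4.28-fold in MV411.

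Over the 11 lines the untreated levels of the subunits did not run closely together. Over the 45 pairs of subunits, the median Pearson r of the line means of log2(1 + CPM) was 0.19, and 31 were positive, where the median r of a subunit with all 13200 genes compared was -0.01. The points share their libraries and normalization, and these correlations are descriptions. The 5 genes closest to SMARCA4 were CARM1 (r = 0.93), CPOX (0.93), INPP5B (0.91), CHERP (0.91) and SLC13A3 (0.91), and without F36P these values were 0.74, 0.73, 0.68, 0.69 and 0.66. CARM1, a histone arginine methyltransferase, lies at chr19:10871553-10923075, 37.9 kb before SMARCA4 on the same strand. The 5 genes closest to SMARCA2 were JAK2 (r = 0.93), CDIN1 (0.90), SMAP1 (0.89), RFK (0.89) and SRFBP1 (0.88), and they kept 0.90, 0.88, 0.84, 0.84 and 0.83 without F36P. JAK2, a cytokine receptor kinase, lies at chr9:4984390-5129948, 2791 kb beyond SMARCA2 on the same chromosome, and RFK is also on chromosome 9.

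The 3 subunits with the lowest mean change, ARID1B, SMARCA4 and SMARCC1, are among the 4 longest genes of the set. ARID1B spans 434.8 kb, SMARCA2 213.3 kb, SMARCC1 196.8 kb and SMARCA4 118.5 kb, whereas the other 6 span from 11 kb (SMARCD2) to 88.9 kb (ARID1A). In F36P the 4 long genes had a median log2 change of -1.27 and the 6 shorter ones of -0.57, and in KASUMI1 the medians were -0.95 and -0.24. In OCIAML3 they were almost alike, at -0.34 and -0.32. Across the 10 subunits, Spearman's rho between span and change was negative in all 11 lines, from -0.81 in MV411 to -0.09 in OCIAML3, as a description over genes that share the same libraries. Among all genes averaging 10 CPM or more, the median change in F36P was -0.17 for genes under 10 kb, -0.07 at 10 to 30 kb, -0.11 at 30 to 100 kb, -0.32 at 100 to 200 kb and -0.54 over 200 kb. In KASUMI1 the same medians were -0.13, -0.03, -0.01, -0.13 and -0.44, so only genes over 200 kb lay below the shortest ones there. In MOLM13 the order was the other way, with -0.10 at 10 to 30 kb and 0.05 over 200 kb. Over 200 kb the median was -0.12 in MONOMAC6, and in the others of the 10 lines it lay between -0.06 in NB4 and 0.00 in OCIAML3. ARID1B, SMARCC1 and SMARCA4 in F36P and in KASUMI1 lay below the lower quartile of genes of their span, and SMARCA2 lay at about the median of its own. The part of gene span in the subunits' change was not tested.

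A list of 21 other SWI/SNF subunits gave 187 pairs of gene and cell line, of which 74 were lower and 39 higher, with a median log2 change of -0.13. These were 39.6% lower and 20.9% higher, against 24.4% and 27.7% of all pairs. Their direction differed with the gene. ARID2, PBRM1 and BRD7 of the PBAF form were called lower in 7, 5 and 6 lines and higher in none, and BRD9 and BICRAL of the non-canonical form in 8 and 9. Of genes tested in every line, 26.4% were lower in at least 5, 19.6% in at least 6, 13.6% in at least 7 and 8.56% in at least 8. BICRAL fell by more than 2-fold in F36P (-1.01) and NB4 (-1.06), and its mean log2 change was -0.58 ± 0.036 (SE). BICRA, its alternative in the non-canonical form, was called lower in 0 lines and higher in 2, MOLM13 (0.41) and NB4 (0.38). Its mean log2 change was 0.16 ± 0.059 (SE, adjusted p = 0.0214 in edgeR). ACTB, the actin of the complex and of the cytoskeleton, had a mean of -0.53 ± 0.036 and was called lower in 8 lines, and ACTL6A in 9. BCL11A, a haematopoietic zinc-finger protein that joins the complex, was lower in 8 of the 9 lines where it was tested and by more than 2-fold in 6. In NOMO1 it stood at 27.3, 27.4 and 26.4 CPM untreated and 7.51, 6.35 and 9.34 CPM after etoposide, a log2 change of -1.78. In HL60 it stood at 39.5, 42.5 and 37.6 CPM untreated and 38.4, 37.7 and 34.9 CPM after etoposide, a change of -0.14 that was not called. OCIAML3 had at most 0.178 CPM of it in any library. SMARCD3, the third SMARCD paralogue, went the other way. It was called higher in 7 lines and lower in none, by more than 2-fold in F36P (3.33), MV411 (2.39), MOLM13 (1.58) and KASUMI1 (1.37), with a mean log2 change of 1.17 ± 0.073 (SE). Of all pairs of gene and cell line, 27.7% were higher and 11.1% by more than 2-fold. The share of genes higher in as many lines was not counted. In F36P SMARCD3 stood at 0.405, 0.28 and 0.522 CPM untreated and 4.16, 4.15 and 4.51 CPM after etoposide. In KASUMI1 it stood at 6.97, 6.42 and 7.37 CPM untreated and 17.9, 20.8 and 16.8 CPM after etoposide. The groups were apart in both, and the highest level in any library was 28.2 CPM, in NB4 after etoposide. Untreated levels were also low in MV411 (0.302, 0.543 and 0.249 CPM) and MOLM13 (0.723, 0.365 and 0.874 CPM). DPF1, a subunit with PHD fingers best known from neurons, was higher in 8 of 9 lines at low levels, with at most 8.69 CPM in any library. The shares of all pairs given for SMARCD3 stand beside this count too. DPF3 was lower in F36P (-1.52) and higher in NB4 (1.63), and BCL11B, tested in 3 lines, was lower in HL60 (-0.52), higher in NB4 (1.35) and not called in NOMO1 (-0.07). ACTL6B had too few reads to be tested in any line. As a further comparison, 14 ATPases of other remodelling families gave 38 lower and 16 higher of 132 pairs (28.8% and 12.1%, against 24.4% and 27.7% of all pairs), with a median log2 change of -0.09. Whether the lists differ from each other was not tested.

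**Figure D2:**
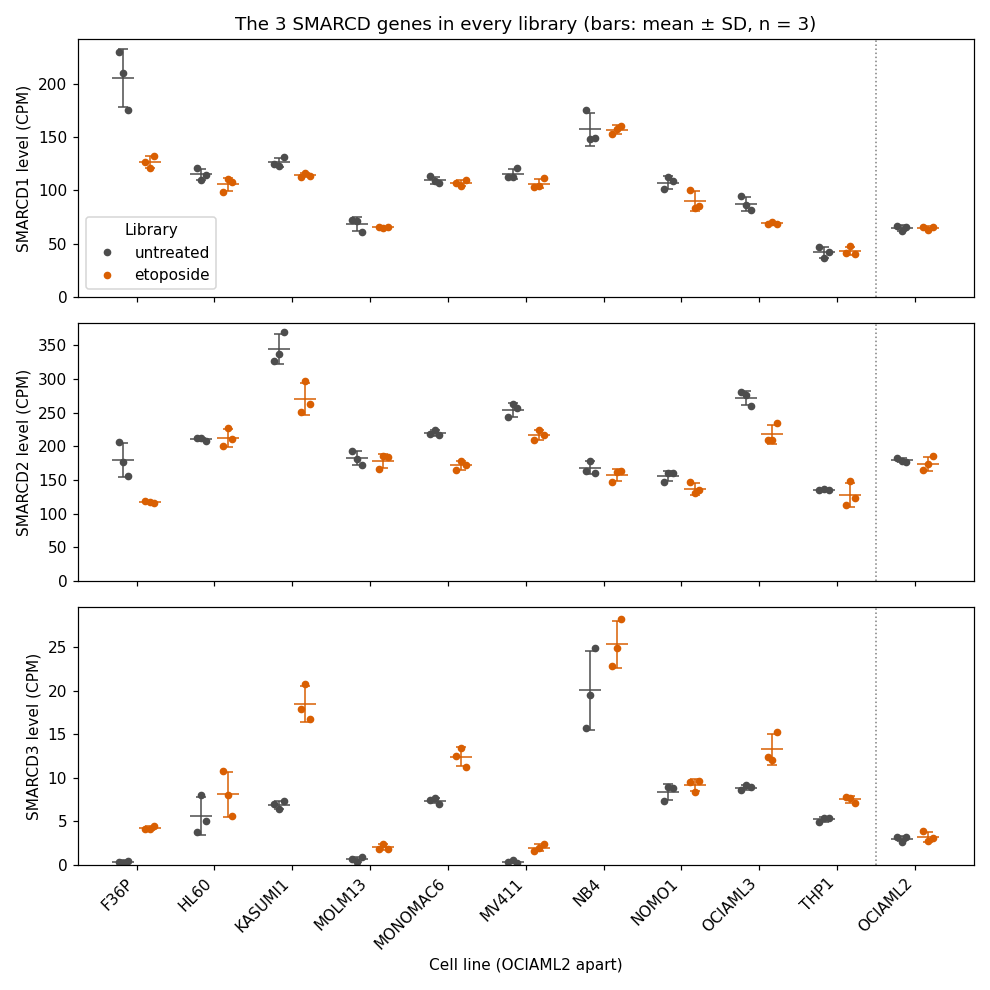
Levels of SMARCD1, SMARCD2 and SMARCD3 in CPM in each library of 11 cell lines, untreated in grey and etoposide in orange, with the mean and SD of 3 libraries as bars and a scale of its own in each panel. SMARCD3 reaches at most 28.2 CPM. It is higher after etoposide without overlap in F36P, KASUMI1, MOLM13, MONOMAC6, MV411, OCIAML3 and THP1, where SMARCD1 and SMARCD2 are lower or not called.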

How the data were processed

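RNA-seq counts of 66 libraries were analysed, 3 for each of 22 groups, as grouped by the labels. Per the labels and methods, reads were aligned by STAR 2.5.3a on GRCh38.p7 under the gencode 25 annotation, and the authors deposited its counts of reads per gene, 1 value per gene and library, with no normalization; the count column is not given in the sources used here. Of 707 genes that lie wholly inside a single exon of a gene on the opposite strand, where counting without strand would assign no read, 463 have reads, so the counts were taken as stranded. The submitters' notes also name FastQC 0.11.5 and edgeR 3.20.1. The 10 subunits and the lists of other genes were chosen with earlier results of these data known.

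From 57992 identifiers (45 copies on chromosome Y with 0 reads left out), 56948 were matched to gencode release 44 for names, positions and lengths. Each cell line's 6 libraries were fitted apart in R 4.3.3 with edgeR 4.0.16 (filterByExpr at min.count 10 and min.total.count 15, TMM, quasi-likelihood test, Benjamini-Hochberg over all genes tested), and calls were made at an FDR below 0.05, with a fold change above 2 where stated. The mean over 10 lines and its difference between lines were tested in one fit of 60 libraries, and untreated levels in one fit of 33. The lines were taken as fixed, so the SE and p of a mean over lines do not measure the spread between lines. Levels are CPM normalized by TMM over all 66 libraries, so their ratio can differ slightly from the fitted log2 change. A value of 1 CPM was added before log2 for correlations. Other steps used Python 3.11.15, numpy 2.4.6, pandas 2.3.3 and matplotlib 3.10.9. The line fit was tested on simulated data with 200 changed genes. No 2 replicates agreed within sampling noise, with a lowest chi-square per degree of freedom of 2.05. The labels state no pairing. Replicate numbers were taken to pair the libraries in MOLM13, MONOMAC6, NB4 and OCIAML2. There, libraries that share a number deviated together from the group means, with r above 0.1 in all 3 pairs (lowest 0.105, in MONOMAC6). MV411 missed this cut narrowly, with a lowest r of 0.079.

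Named genes were the 10 subunits, and from a list of 21 other subunits those called with a fold change above 2 in at least 2 of 10 lines and the 3 with the highest and the 3 with the lowest mean log2 change, beside those described by form of the complex. The promoter table matched 8 of the 10 genes at the start of their MANE Select transcript, not SMARCC1 and SMARCC2. Alternatives were RLE or library size normalization, other filters on low counts, DESeq2 1.42.0, the replicate block, one fit of 60 libraries and libraries or cell lines left out. Leaving out F36P or THP1 from the count of pairs was chosen after seeing the data. Of the marker genes checked, 2 are not reported here.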

Additional observations from a re-analysis of the deposited data

Results flagged for a closer look

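The etoposide change of each of the 10 subunits differed between the 10 cell lines by the interaction test of edgeR (adjusted over all genes). The adjusted p was 8.18e-22 for ARID1B, 1.42e-16 for SMARCC1, 4.84e-10 for ARID1A, 3.02e-07 for SMARCA4, 1.66e-06 for SMARCC2, 1.20e-05 for SMARCD1, 7.97e-05 for SMARCD2, 0.000835 for SMARCA2, 0.00435 for SMARCE1 and 0.0201 for SMARCB1. Since 74.5% of all genes passed this test, and the etoposide concentration differed between lines, the result is not particular to the subunits, and the line and its concentration cannot be told apart. SMARCB1 was not past the threshold without replicate number 1 (adjusted p = 0.0837) or 2 (0.381), SMARCA2 without number 2 (0.104), and SMARCE1 without number 2 (0.162) or 3 (0.166).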

How the results depend on the processing

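Of the changes of a single subunit in a line or over lines, 836 of 890 values under other settings kept their side of the threshold. With a library or replicate left out, 782 of 850 did. No call turned into a call in the other direction. Changes without a call could change sign, as for SMARCA2 in NB4 (-0.05), where library size alone shifted the changes by 0.21. With library size alone, subunits called numbered 1 in HL60 and 2 in THP1, pairs called higher 7 and pairs lower by more than 2-fold 3, since the changes then shift upward in most lines. Over 10 lines, SMARCC2 was the only subunit called higher, and 0 were with no filter on low counts (adjusted p = 0.584), without replicate number 3 (1.000) or with the replicate block. With a library left out, subunits called ranged from 6 to 10 in F36P, 0 to 3 in HL60, 6 to 8 in KASUMI1, 4 to 6 in MOLM13, 6 to 8 in MONOMAC6, 8 to 9 in MV411, 3 to 4 in NB4, 4 to 8 in NOMO1, 6 to 7 in OCIAML3 and 1 to 5 in THP1, and stayed at 0 in OCIAML2. Pairs called lower ranged from 49 (without F36P, an omission chosen after seeing the data) to 60, and higher from 2 to 4, the mean change over lines from 0 to 1 subunits higher, the interaction from 7 to 9 subunits, and the change of the SMARCA4 to SMARCA2 ratio from -0.33 to -0.21. The cause of these movements was not tested.

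With the replicate number as a block, 54 pairs were called lower and 3 higher, 9 subunits passed the interaction (SMARCB1 had an adjusted p of 0.0784), and SMARCC2 over 10 lines had an adjusted p of 0.0928. In the 4 lines where the numbers were taken to pair the libraries, the block changed the call of SMARCB1 in MONOMAC6 and no other. In the other lines, which share a number alone, it removed 5 calls: SMARCB1 and SMARCC2 in F36P, SMARCD1 in KASUMI1 and NOMO1, and ARID1B in OCIAML3. There, between 0 (NOMO1) and 5 (MV411) of the 6 libraries correlated best with their own number.

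Limits: each group has 3 libraries of 1 cell line, each line had its own etoposide concentration, RNA was read at 1 time, and counts per gene do not separate isoforms or start sites. At these depths the least abundant subunit, SMARCB1 in MONOMAC6, still stood at 16.6 CPM or more in every library.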
